A study of Mus musculus with 20 samples.

Results

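The 34 genes described here are expressed by myeloid cells, mainly macrophages and neutrophils: 28 mark macrophages, monocytes or leukocytes more broadly, and 6 mark neutrophils. They were taken by name, after the Ensembl identifiers of the count table had been matched to mouse symbols, and all 34 of 34 were found among the 78258 genes of the table and passed its filter on low counts. RNA was measured in dorsal root ganglia (DRG), which hold the cell bodies of sensory neurons, at lumbar levels L4 to L6 of 10 male mice, with 1 library from the injured side and 1 from the uninjured side of each mouse. The 5 conditional knockout mice (cKO) were Ahr fl/fl and carried Thy1CRE-ERT2/EYFP, a tamoxifen-activated Cre recombinase under the Thy1 promoter, which is active in neurons, so the design removes the aryl hydrocarbon receptor, a ligand-activated transcription factor, from cells in which that promoter drives Cre. The 5 control mice were Ahr f/f or f/+. Every mouse of either genotype was given tamoxifen at 100 mg/kg by intraperitoneal injection on 5 days at 17 weeks of age, and had 1 sciatic nerve cut 4 weeks later. DRG were taken 1 day after the cut, so the 4 groups were control contralateral, control ipsilateral, cKO contralateral and cKO ipsilateral, with 5 libraries each. One label field speaks of spinal cord injury, whereas the protocol describes a cut of the sciatic nerve, and the protocol is followed here. The contralateral DRG come from mice that carry the lesion on the other side and are not DRG of uninjured animals.

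Macrophages live in the DRG around the cell bodies of the neurons and along blood vessels, and they take up debris, present antigen and secrete growth factors and cytokines. After a peripheral nerve is cut, axotomised neurons release signals such as colony-stimulating factor 1, and macrophages in the ganglion divide or are joined by monocytes from the blood over the following days. Neutrophils are short-lived granulocytes made in the bone marrow that circulate in blood and reach inflamed tissue early. These libraries are of whole ganglia, so fewer cells of a type and less RNA per cell cannot be told apart.

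The transcription factor PU.1 is required for macrophage and granulocyte development and binds sites built around GAGGAA. The 250 bases before the start of a gene were available from RefSeq (build GRCm38.p6) for 27 of the 34 genes. GAGGAA was found on either strand in 16 of these 27 windows (59.3%) and in 6252 of all 27025 windows of the same length (23.1%). TGANTCA, the AP-1 motif, which reads alike on both strands and cannot share a base with the PU.1 core, was searched after the data had been seen and was found in 3 of 27 (11.1%; Cd68, Trem2 and Cd84) and in 6.87% of all windows. A match is a description of these letters and does not show that a factor binds there. The windows of 5 genes are printed because these genes carry the patterns below: S100a8 and S100a9, 2 neighbouring neutrophil genes whose levels varied together between libraries, C1qb and C1qc, 2 neighbouring macrophage genes that also varied together, and Lgals3, which was higher on the injured side in every mouse. Each is written 5′ to 3′ on the strand of its gene and ends at the base before the start, with GAGGAA or its reverse complement TTCCTC in capitals.
S100a8, chr3:90668821-90669070, plus strand: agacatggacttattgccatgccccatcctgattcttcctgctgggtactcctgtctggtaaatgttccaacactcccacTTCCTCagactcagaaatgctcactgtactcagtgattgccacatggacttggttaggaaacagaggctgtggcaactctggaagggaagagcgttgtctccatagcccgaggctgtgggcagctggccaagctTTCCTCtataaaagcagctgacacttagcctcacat
S100a9, chr3:90695722-90695971, minus strand: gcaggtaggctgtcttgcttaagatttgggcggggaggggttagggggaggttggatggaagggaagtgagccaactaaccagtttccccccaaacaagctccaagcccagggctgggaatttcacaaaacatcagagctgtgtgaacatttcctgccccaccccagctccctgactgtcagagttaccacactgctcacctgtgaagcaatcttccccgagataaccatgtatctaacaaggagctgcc
C1qb, chr4:136886201-136886450, minus strand: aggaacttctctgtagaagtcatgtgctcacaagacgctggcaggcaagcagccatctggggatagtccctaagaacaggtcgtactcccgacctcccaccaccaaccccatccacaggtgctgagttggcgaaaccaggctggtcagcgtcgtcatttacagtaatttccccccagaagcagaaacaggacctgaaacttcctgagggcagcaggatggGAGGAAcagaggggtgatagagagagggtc
C1qc, chr4:136892915-136893164, minus strand: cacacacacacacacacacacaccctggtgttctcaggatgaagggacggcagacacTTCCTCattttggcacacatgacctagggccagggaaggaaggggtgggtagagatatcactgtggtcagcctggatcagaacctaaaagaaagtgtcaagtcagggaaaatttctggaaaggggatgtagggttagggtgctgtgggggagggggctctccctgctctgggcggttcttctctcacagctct
Lgals3, chr14:47373610-47373859, plus strand: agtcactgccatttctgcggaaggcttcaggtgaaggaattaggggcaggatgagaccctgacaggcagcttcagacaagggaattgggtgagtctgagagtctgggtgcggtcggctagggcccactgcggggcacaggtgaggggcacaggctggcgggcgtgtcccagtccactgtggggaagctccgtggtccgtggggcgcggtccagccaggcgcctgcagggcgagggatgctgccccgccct
S100a8 held 2 matches and S100a9 none, although their levels moved together. C1qb and C1qc held 1 match each, and Lgals3 held none.

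Exonic read counts assigned to genes totalled 76150333 to 118537209 per library. The smallest count of any of the 34 genes was 8 (Ly6g in 1 library), and 26 of the 34 had at least 100 counts in every library. Values are given below as CPM (counts scaled to a common library size after TMM normalisation), as mean ± SD over the 5 libraries of a group. Fold changes, their standard errors (SE) and adjusted p-values come from edgeR's quasi-likelihood test over all 28564 genes that passed the filter, and a gene was called changed at an adjusted p under 0.05. Ahr itself was at 24.2 ± 2.10 CPM in control and 20.4 ± 0.536 CPM in cKO contralateral DRG (log2 fold change -0.25, edgeR adjusted p = 0.103) and at 34.4 ± 2.86 and 31.9 ± 2.94 CPM in the ipsilateral DRG. The Ahr values sum reads over the whole gene and over all cells of the ganglion, so they do not show how much of the gene was recombined in neurons.

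The myeloid genes varied far more between mice of a group than most genes did. Their median coefficient of variation (SD as a share of the mean) was 35.3% in control contralateral, 27.6% in control ipsilateral, 40.5% in cKO contralateral and 24.4% in cKO ipsilateral libraries. Over all tested genes the medians were 8.95%, 8.73%, 11.6% and 8.53%. Spp1 had the lowest spread of the 34 in 3 groups, at 5.07% in control contralateral, 10.3% in cKO contralateral and 5.20% in cKO ipsilateral DRG, and Lgals3 had the lowest in control ipsilateral DRG, at 6.31%. Ly6g, a neutrophil surface protein, had the highest in 3 groups, up to 87.0% in cKO contralateral DRG, and S100a9 the highest in control ipsilateral DRG at 59.4%.

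Much of this spread ran through whole libraries. In cKO contralateral DRG, mouse H64 had the highest value of the group for 30 of the 34 genes and mouse H99 the lowest for 31. The 34 genes summed to 1260 CPM in H64 and 494 CPM in H99. In cKO ipsilateral DRG the highest values were in H100 for 25 genes and in H64 for 8, the latter being Cd163, Lgals3 and the 6 neutrophil genes. In control ipsilateral DRG, H96 was highest for 26 genes and H65 lowest for 25. In control contralateral DRG, H96 was highest for 19 genes, H62 for 12, among them all 6 neutrophil genes, and H97 lowest for 20. Counts and medians over the 34 genes are therefore also given without H64 or H99 where these move them.

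**Figure D1:**
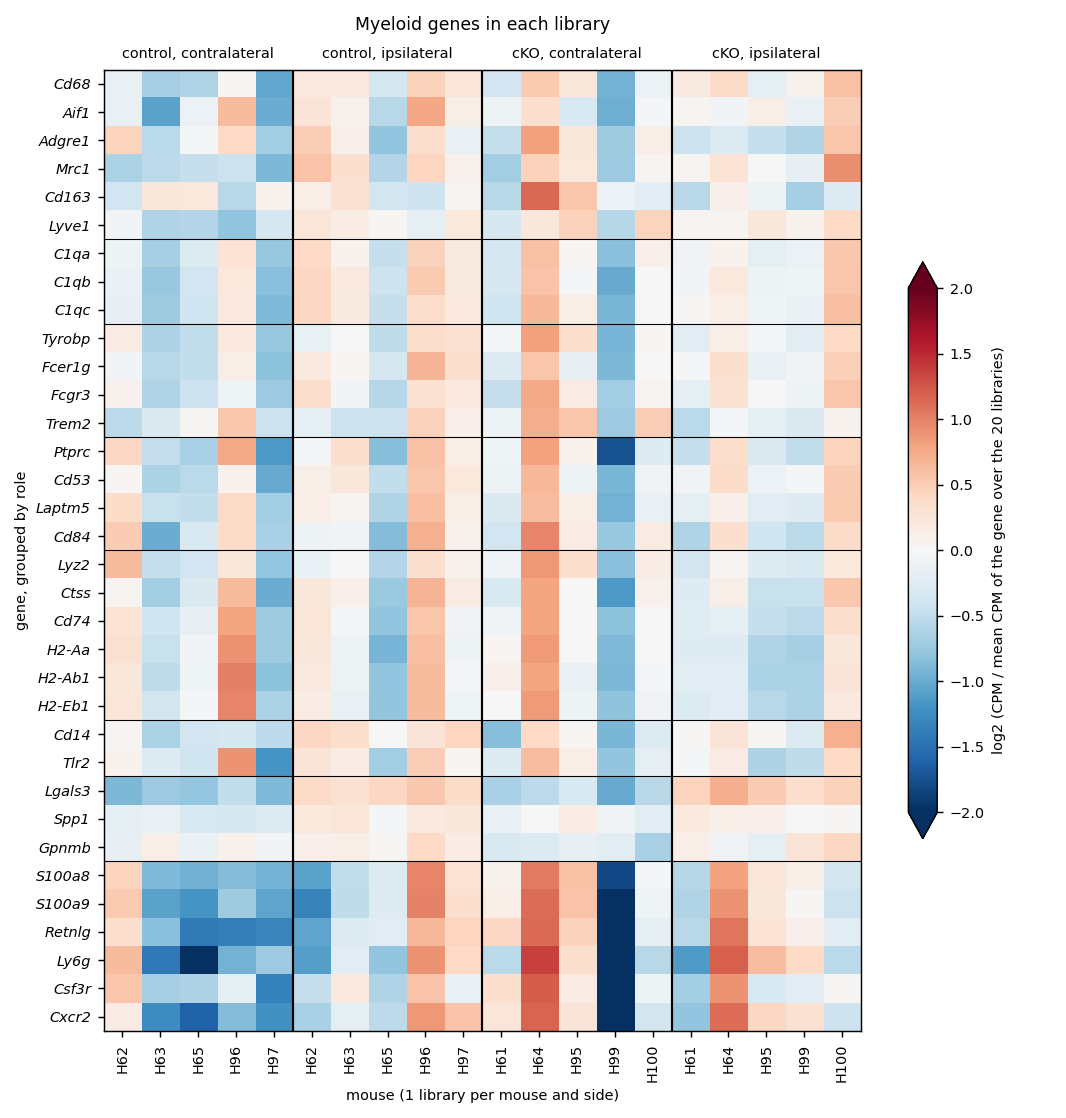
Heat map of the 34 genes (rows, grouped by role) in the 20 libraries (columns, by group and mouse); colour is log2 of CPM over the gene's mean across the 20 libraries. Whole columns stand apart, such as H64 (highest in 30 genes) and H99 (lowest in 31) among cKO contralateral libraries, while Lgals3 separates the injured from the uninjured side in both genotypes.

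The first question was how the myeloid genes differed between injured and uninjured DRG 1 day after the cut. In control mice 5 of the 34 rose (Lgals3, Spp1, Lyve1, Mrc1 and Cd14) and none fell in edgeR's test, 14.7% of the members against 29.9% of all tested genes called in either direction, 13.8% higher and 16% lower. Of the 34, 30 had a log2 fold change above 0, against 49.2% of all genes, and their median was 0.39 against -0.00 for all genes. In cKO mice 2 of the 34 rose (Lgals3 and Gpnmb) and none fell, 5.88% against 31.3% of all genes called in either direction, 16.2% higher and 15.1% lower. In this genotype 17 members lay above 0 and 17 below, with 44.9% of all genes above 0, and their median was 0.03 against -0.03. The median SE of a member's log2 fold change was 0.290, against 0.0943 for all genes in both comparisons. The ranges of the sides did not overlap, with the injured side higher, for Lgals3 and Spp1 in control mice (11.3% of all genes) and for Lgals3 alone in cKO mice (11.9% of all genes). Without H64 and H99 the counts were 6 and 2. The cKO median was 0.16 with 24 of 34 above 0 without H64, and -0.12 with 12 above 0 without H99. The control count fell to 2 without H63 or H97 and to 3 without H65 or H96, and it was Lyve1, Mrc1 and Cd14 that lost their calls.

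**Figure D2:**
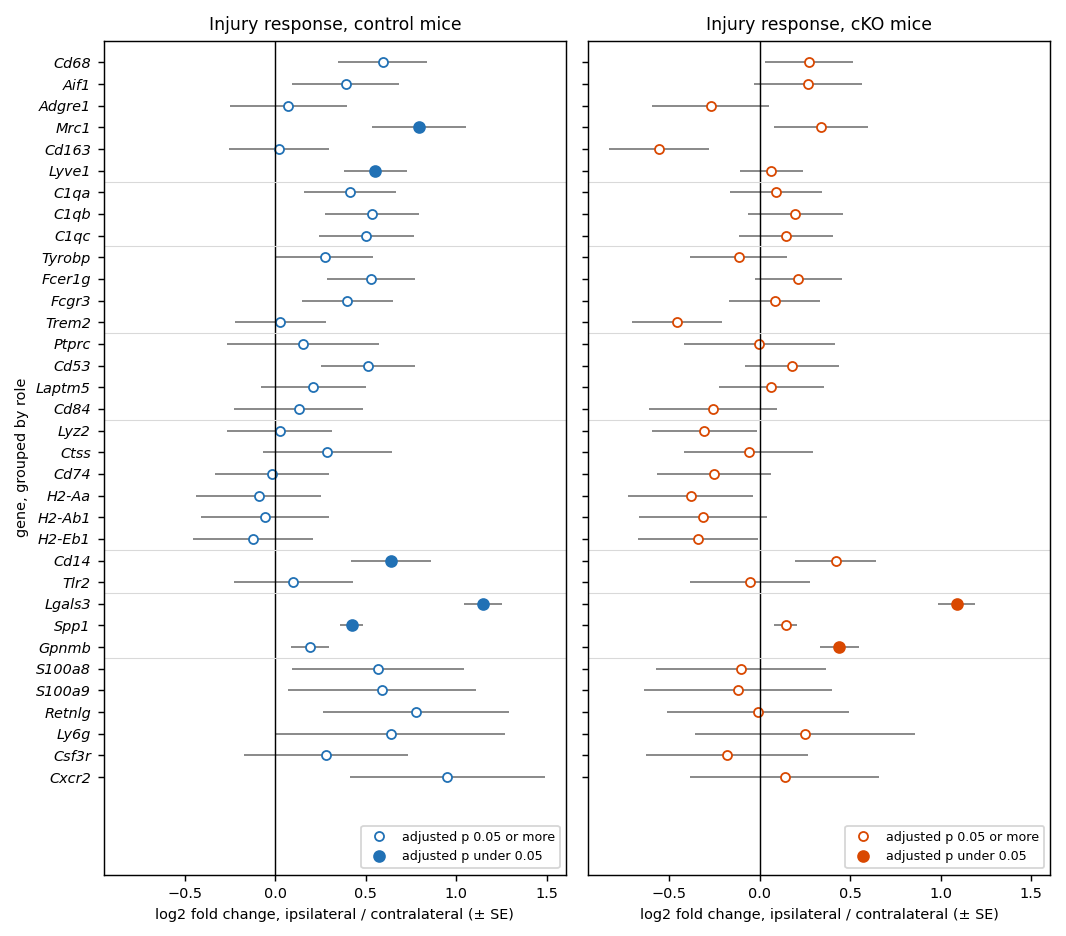
Log2 fold change (ipsilateral over contralateral, ± SE; n = 5 libraries per side) of each gene in control mice (left) and cKO mice (right); filled points passed an adjusted p of 0.05 in edgeR's test. Lgals3 lies above 1 in both genotypes with a short error bar, whereas the neutrophil genes at the bottom have the longest error bars.

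Markers of other cells of the ganglion moved in the same comparison. Of 7 endothelial markers, Flt1 and Tek rose in control mice, all 7 had log2 fold changes above 0 there (median 0.38), and none passed in cKO mice (4 above 0, median 0.07). Their sum spanned 118 to 186 and 138 to 209 CPM on the contralateral and ipsilateral side of control mice, and 129.9 to 222 and 151 to 191 CPM in cKO mice. Of 7 fibroblast markers none passed in control mice, where all 7 lay above 0 (median 0.34), and Dpt fell in cKO mice, where 1 lay above 0 (median -0.64). The fibroblast markers summed to 803 to 1359 and 927 to 1520 CPM in control mice and to 937 to 2245 and 850.1 to 1560 CPM in cKO mice. No gene of either list was at 0 in all libraries of a group, and their part in the myeloid values was not tested.

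Lgals3, Spp1 and Gpnmb encode galectin-3, osteopontin and a lysosomal glycoprotein, which phagocytes make when activated and which are also made by other cells, including sensory neurons for Lgals3 and Spp1. Lgals3 was at 24.1, 27.3, 26.3, 31.8 and 24.5 CPM in the contralateral DRG of control mice H62, H63, H65, H96 and H97, and at 58.4, 55.4, 59.8, 65.5 and 58.2 CPM in their ipsilateral DRG. In cKO mice H61, H64, H95, H99 and H100 it was at 28.7, 31.4, 36.2, 22.4 and 30.7 CPM contralaterally and at 61.2, 74.2, 63.9, 56.8 and 61.8 CPM ipsilaterally. Every ipsilateral library lay above every contralateral one in each genotype. Lgals3 rose 2.22-fold in control mice (log2 fold change 1.15, SE 0.103, edgeR adjusted p = 6.30e-08) and 2.13-fold in cKO mice (1.09, SE 0.103, adjusted p = 1.07e-07). It was the only one of the 34 to be higher on the injured side in 5 of 5 mice of both genotypes.

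Spp1 was at 136, 140.7, 126, 125.6 and 129 CPM in the contralateral DRG of control mice H62, H63, H65, H96 and H97, and at 180.2, 186, 152, 179.9 and 184 CPM ipsilaterally. In cKO mice H61, H64, H95, H99 and H100 it was at 141, 158, 174, 149 and 134 CPM contralaterally and at 179, 170.5, 168, 158 and 159.5 CPM ipsilaterally. The sides did not overlap in control mice, and in cKO mice H95 was lower on the injured side while the other 4 were higher. Spp1 rose 1.34-fold in control mice (log2 fold change 0.42, SE 0.0635, edgeR adjusted p = 2.73e-05). In cKO mice its log2 fold change was 0.14 (SE 0.0634) and did not pass (adjusted p = 0.0918), but it passed with each mouse as a block (0.15, adjusted p = 0.0404) and without H95 (0.20, adjusted p = 0.0225). The difference between the genotypes' responses was -0.28 (SE 0.0897, edgeR adjusted p = 0.485), so a difference was not established.

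Gpnmb was at 7.87, 9.59, 8.06, 9.34 and 8.54 CPM contralaterally and at 9.501, 9.54, 9.003, 11.7 and 9.80 CPM ipsilaterally in control mice H62, H63, H65, H96 and H97. The cKO mice H61, H64, H95, H99 and H100 had it at 7.18, 7.31, 7.87, 7.60 and 5.61 CPM and at 9.71, 8.45, 7.76, 10.6 and 11.8 CPM. The ranges overlapped in both genotypes, with H100 at once the lowest cKO library contralaterally and the highest ipsilaterally. Gpnmb rose 1.36-fold in cKO mice (log2 fold change 0.44, SE 0.107, edgeR adjusted p = 0.00320) and its value in control mice was 0.19 (SE 0.107, adjusted p = 0.199). The difference between these responses was 0.25 (SE 0.151, adjusted p = 0.582).

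Of 15 sensory neuron markers, 4 fell and none rose with injury in control mice (Mrgprd, Rbfox3, Scn10a and Scn9a), and in cKO mice P2rx3 rose and Calca and Rbfox3 fell. Their summed levels spanned 9986 to 11338 CPM in control contralateral, 9736 to 10638 in control ipsilateral, 9562 to 11372 in cKO contralateral and 9563 to 10179 in cKO ipsilateral libraries, and none of the 15 was at 0 in all libraries of a group. Their part in the values of Lgals3, Spp1 and Gpnmb was not tested.

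Among the 6 macrophage surface and cytoplasmic markers, Mrc1 and Lyve1 rose in control mice and none passed in cKO mice. Mrc1, the mannose receptor of perivascular and other tissue macrophages, was at 11.9, 12.7, 13.4, 13.6 and 9.85 CPM contralaterally and at 27.4, 22.9, 12.3, 24.7 and 19.4 CPM ipsilaterally in control mice H62, H63, H65, H96 and H97. Only H65 failed to gain, and its ipsilateral value lay within the contralateral range. Mrc1 rose 1.73-fold (log2 fold change 0.79, SE 0.261, edgeR adjusted p = 0.0283). In cKO mice H61, H64, H95, H99 and H100 it was at 11.3, 25.1, 21.3, 11.04 and 19.0 CPM and at 19.1, 22.1, 18.4, 16.4 and 34.9 CPM (0.34, SE 0.258, adjusted p = 0.358). The Mrc1 call did not hold when H62 (0.68, adjusted p = 0.115), H63 (0.79, 0.0802), H96 (0.79, 0.0798) or H97 (0.77, 0.0805) was left out.

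Lyve1, a hyaluronan receptor of a perivascular macrophage subset and of lymphatic endothelium, was at 8.24, 5.63, 5.71, 4.93 and 6.71 CPM contralaterally and at 10.1, 9.49, 8.76, 7.52 and 9.90 CPM ipsilaterally in control mice H62, H63, H65, H96 and H97. All 5 control mice were higher on the injured side, by a log2 fold change of 0.55 (1.47-fold, SE 0.177, edgeR adjusted p = 0.0229). In cKO mice it was at 6.88, 10.002, 11.7, 5.73 and 11.6 CPM contralaterally and at 8.85, 8.86, 10.1, 8.97 and 11.3 CPM ipsilaterally in H61, H64, H95, H99 and H100 (0.06, SE 0.175, adjusted p = 0.832). The Lyve1 call was lost without H63 (0.52, adjusted p = 0.0879), H65 (0.55, 0.0678) or H97 (0.56, 0.0636). Of 6 other lymphatic endothelial markers, Pdpn and Flt4 rose in control mice and none passed in cKO mice. Their sum spanned 55.1 to 73.5 and 61.7 to 93.95 CPM on the contralateral and ipsilateral side of control mice and 61.4 to 83.9 and 71.6 to 82.1 CPM in cKO mice, none was at 0 in all libraries of a group, and their part in the Lyve1 result was not tested.

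The other 4 macrophage markers did not pass in either genotype. Cd68, a lysosomal glycoprotein, was at 3.70, 2.60, 2.70, 4.22 and 2.01 CPM contralaterally and at 4.68, 4.71, 3.20, 5.63 and 4.84 CPM ipsilaterally in control mice H62, H63, H65, H96 and H97. It was higher on the injured side in 5 of 5 control mice (log2 fold change 0.59, SE 0.245, edgeR adjusted p = 0.0782) and passed with DESeq2 (adjusted p = 0.0308), when just the control libraries were fitted (0.61, 0.0470), and without H99, whose libraries enter the shared estimate of the spread (0.60, 0.0467). In cKO mice Cd68 averaged 3.96 ± 1.46 and 4.79 ± 0.976 CPM (0.27, adjusted p = 0.436). Aif1, the cytoskeletal protein IBA1, had log2 fold changes of 0.39 and 0.27 in control and cKO mice, and Adgre1, the F4/80 antigen, had 0.07 and -0.27. Cd163, the haemoglobin scavenger receptor, had 0.02 in control mice and -0.56 (SE 0.276, edgeR adjusted p = 0.140) in cKO mice. For Cd163 the cKO contralateral values were 4.13, 13.5, 8.90, 5.58 and 5.19 CPM in H61, H64, H95, H99 and H100, against 4.14, 6.52, 5.69, 3.83 and 5.09 CPM ipsilaterally. Most of the contralateral excess of Cd163 lay in H64 and H95.

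The 3 chains of C1q, the first component of complement, which tissue macrophages make, moved together. C1qb was at 23.5, 15.3, 19.9, 30.1 and 14.52 CPM contralaterally and at 34.5, 29.5, 19.5, 37.1 and 29.2 CPM ipsilaterally in control mice H62, H63, H65, H96 and H97, higher in 4 of 5. In H61, H64, H95, H99 and H100, the cKO mice, it was at 20.8, 38.4, 25.6, 12.8 and 25.8 CPM and at 24.8, 30.04, 24.2, 24.4 and 38.1 CPM. H64, the highest of its group contralaterally, was lower on the injured side, whereas H99, the lowest contralaterally, was higher there. The log2 fold changes of C1qa, C1qb and C1qc were 0.41, 0.53 and 0.50 in control mice (lowest edgeR adjusted p = 0.144) and 0.09, 0.20 and 0.15 in cKO mice (lowest 0.624), so none of the 3 passed.

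Tyrobp and Fcer1g encode adaptors through which activating receptors signal, Fcgr3 an antibody receptor and Trem2 a lipid receptor that pairs with Tyrobp. Fcer1g was at 7.04, 4.96, 5.22, 7.92 and 4.16 CPM contralaterally and at 8.40, 7.41, 5.74, 11.7 and 9.10 CPM ipsilaterally in control mice H62, H63, H65, H96 and H97. It was higher in 5 of 5 control mice (log2 fold change 0.53, SE 0.242, edgeR adjusted p = 0.115) and passed with each mouse as a block (0.53, adjusted p = 0.0248). In cKO mice Fcer1g had 0.21 (SE 0.242, adjusted p = 0.558). Fcgr3 had log2 fold changes of 0.40 and 0.08 and Tyrobp of 0.27 and -0.11 in control and cKO mice. Trem2 had 0.03 in control mice and -0.46 (SE 0.249, edgeR adjusted p = 0.179) in cKO mice, where it averaged 1.55 ± 0.553 CPM contralaterally and 1.13 ± 0.178 CPM ipsilaterally.

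The leukocyte genes Ptprc (CD45), Cd53, Laptm5 and Cd84 did not pass in either genotype. Cd53, a tetraspanin, was higher in 5 of 5 control mice (4.48 ± 1.42 against 6.41 ± 1.56 CPM, log2 fold change 0.51, edgeR adjusted p = 0.160) and in 3 of 5 cKO mice (5.63 ± 2.15 against 6.37 ± 1.30 CPM, 0.18, adjusted p = 0.661). Ptprc was at 7.14 ± 3.87 and 7.96 ± 2.62 CPM in control and at 7.22 ± 3.86 and 7.21 ± 2.31 CPM in cKO mice, contralateral and ipsilateral. The SE of the Ptprc log2 fold change was 0.418 in both genotypes. Between mice, the SD of its log2 ratio of the sides was 0.744 in control and 0.783 in cKO mice. A small change in Ptprc could thus not be told from none.

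On the injured side the antigen presentation genes lay near or slightly below their contralateral levels, within the spread between mice. H2-Aa, H2-Ab1 and H2-Eb1 encode chains of MHC class II, and Cd74 the invariant chain that guides them. None of the 4 passed in either genotype, and all 4 had log2 fold changes below 0 in both, from -0.02 (Cd74) to -0.13 (H2-Eb1) in control mice and from -0.25 (Cd74) to -0.38 (H2-Aa) in cKO mice. The sign was not stable for 3 of the control values, which spanned -0.18 to 0.11 for H2-Ab1, -0.20 to 0.04 for H2-Aa and -0.12 to 0.09 for Cd74 over the alternatives run, nor for Cd74 in cKO mice (-0.43 to 0.00). H2-Aa was at 71.3, 42.6, 55.4, 108.4 and 35.4 CPM contralaterally and at 67.9, 53.7, 30.5, 88.1 and 53.8 CPM ipsilaterally in control mice H62, H63, H65, H96 and H97. The values of cKO mice H61, H64, H95, H99 and H100 were 59.2, 104.9, 57.5, 31.5 and 58.2 CPM and at 48.5, 48.2, 37.9, 36.5 and 67.9 CPM. The highest libraries of the study for H2-Aa were thus contralateral ones, H96 among controls and H64 among cKO mice. The lysosomal protease Ctss had log2 fold changes of 0.29 and -0.06 in control and cKO mice, and the lysozyme gene Lyz2, whose reads can be shared with its near copy Lyz1, 0.02 and -0.31.

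Cd14 and Tlr2 encode receptors that sense bacterial products. Cd14 was at 3.71, 2.29, 2.72, 2.77 and 2.48 CPM contralaterally and at 4.74, 4.51, 3.55, 4.23 and 4.78 CPM ipsilaterally in control mice H62, H63, H65, H96 and H97. It was higher in 5 of 5 mice, with only the contralateral library of H62 above the lowest ipsilateral one, and rose 1.56-fold (log2 fold change 0.64, SE 0.222, edgeR adjusted p = 0.0355). The Cd14 call was lost without H63 (0.58, adjusted p = 0.127), H65 (0.71, 0.0568), H96 (0.66, 0.0879) or H97 (0.58, 0.129). In cKO mice H61, H64, H95, H99 and H100 it was at 1.98, 4.68, 3.61, 1.89 and 2.94 CPM contralaterally and at 3.60, 4.26, 3.61, 2.93 and 5.80 CPM ipsilaterally (0.42, SE 0.222, adjusted p = 0.167). Tlr2 had 0.10 in control and -0.05 in cKO mice.

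The mouse numbers fall into 2 ranges, below 70 and above 90, which the labels do not call a batch. Within the lower and the higher range, the mean log2 ratio of a control mouse's sides was 1.16 and 1.15 for Lgals3, 0.36 and 0.52 for Spp1, 0.56 and 0.58 for Lyve1, 0.64 and 0.92 for Mrc1 and 0.57 and 0.78 for Cd14. In cKO mice it was 1.17 and 1.06 for Lgals3 and 0.32 and 0.51 for Gpnmb. The direction of each called gene was the same in both ranges. The calls were made on these same mice, so this agreement is not a separate check, and some uncalled members kept their direction too. Of the 6 neutrophil genes, 3 changed direction in control mice, S100a8 with -0.15 and 1.53, S100a9 with -0.12 and 1.54 and Csf3r with -0.05 and 0.98. The other 3 lay above 0 in both, Retnlg with 0.13 and 1.89, Ly6g with 0.25 and 1.48 and Cxcr2 with 0.44 and 1.76. In cKO mice all 6 averaged below 0 in the lower range and above 0 in the higher, where the average was carried by H99. For S100a8 the log2 ratio there was 1.92 in H99, -0.34 in H95 and -0.32 in H100, and for Cxcr2 it was 3.04, 0.16 and -0.05.

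The 6 neutrophil genes were among the most variable of the 34, and none passed the injury test in either genotype (lowest edgeR adjusted p = 0.214 in control and 0.808 in cKO mice). S100a8 and S100a9 encode the subunits of calprotectin, Retnlg a resistin-like secreted protein, Ly6g a surface protein, Csf3r the receptor of granulocyte colony-stimulating factor and Cxcr2 a chemokine receptor. S100a8 was at 34.2, 13.5, 12.9, 13.8 and 12.98 CPM contralaterally and at 11.9, 17.7, 20.6, 49.2 and 30.2 CPM ipsilaterally in control mice H62, H63, H65, H96 and H97. H62 went down and the other 4 went up. In cKO mice H61, H64, H95, H99 and H100 S100a8 was at 26.1, 51.6, 37.6, 7.16 and 24.3 CPM and at 16.8, 43.6, 29.6, 27.1 and 19.5 CPM. Here only H99 went up, from the lowest value of the 20 libraries. The log2 fold changes of S100a8 were 0.57 (SE 0.475) and -0.10 (SE 0.472) in control and cKO mice, those of S100a9 0.59 and -0.12, and those of Cxcr2 0.95 (SE 0.540) and 0.14 (SE 0.522). Over the alternatives run, the control values spanned 0.14 to 1.15 for S100a8, 0.18 to 1.25 for S100a9 and 0.15 to 1.49 for Cxcr2. In cKO mice the spans were -0.42 to 0.09, -0.45 to 0.10 and -0.24 to 0.46.

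Summed over the 6 neutrophil genes, control mice H62, H63, H65, H96 and H97 had 97.6, 35.6, 32.6, 40.4 and 34.2 CPM contralaterally and 31.4, 51.6, 57.7, 135.7 and 86.8 CPM ipsilaterally. The cKO mice H61, H64, H95, H99 and H100 had 77.3, 150.4, 102.7, 18.03 and 66.0 CPM contralaterally and 46.3, 129.8, 82.8, 73.8 and 54.4 CPM ipsilaterally. The uninjured side of H64 was the highest of the 20 libraries and that of H99 the lowest, an 8.34-fold range within 1 group.

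**Figure D3:**
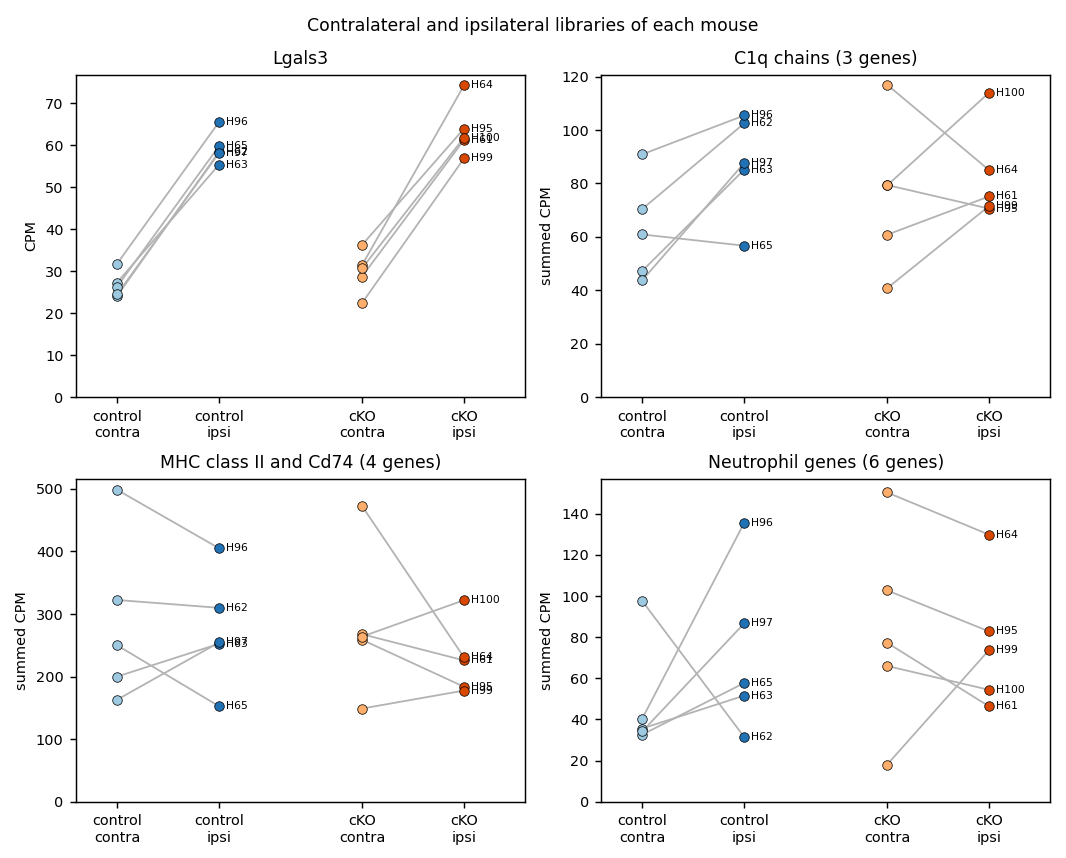
Contralateral and ipsilateral values of each mouse, joined by a line, for Lgals3 and for the sums of the C1q, MHC class II and neutrophil genes (CPM, axes from 0; 5 mice per genotype). All 10 Lgals3 lines rise, while the lines of the 3 sums cross, and for the neutrophil genes 4 of 5 control mice rise and 4 of 5 cKO mice fall.

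Granule genes of the neutrophil lineage had their highest levels in the same libraries as the 6 neutrophil genes, and red cell genes in 3 of the 4 groups. The granule proteases Elane, Mpo, Prtn3 and Ctsg, transcribed in marrow precursors, summed to 1.75 to 13.8 CPM in control contralateral, 1.92 to 11.1 in control ipsilateral, 2.47 to 10.99 in cKO contralateral and 2.58 to 7.53 in cKO ipsilateral libraries. Their highest libraries were H62, H96, H64 and H64, the ones with the highest neutrophil sums. They are a subset of 9 marrow precursor genes, whose sum, most of it Kit, spanned 101.8 to 113 CPM in control contralateral (highest in H62), 75.3 to 87.3 in control ipsilateral (H96), 89.9 to 113 in cKO contralateral (H95, with H64 lowest) and 72.8 to 91.2 CPM in cKO ipsilateral libraries (H64). The secondary granule genes Ltf, Camp, Ngp and Lcn2 had the same 4 highest libraries, at 116.7, 155.6, 156.9 and 139.4 CPM against lows of 26.8, 28.6, 16.8 and 38.9 CPM. The 6 erythroid genes spanned 312 to 717, 319.7 to 596, 273 to 839 and 254 to 621 CPM in the 4 groups in the same order, with H62, H96, H64 and H100 highest. The 6 bone and cartilage genes spanned 10.4 to 38.2, 9.66 to 36.9, 17.4 to 133.6 and 8.67 to 11.3 CPM, with H62, H96, H95 and H100 highest, and 4 of the 6 (Acan, Chad, Col2a1 and Ibsp) fell with injury in cKO mice. No gene of these 4 lists was at 0 in all libraries of a group, and their part in the neutrophil values was not tested.

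**Figure D4:**
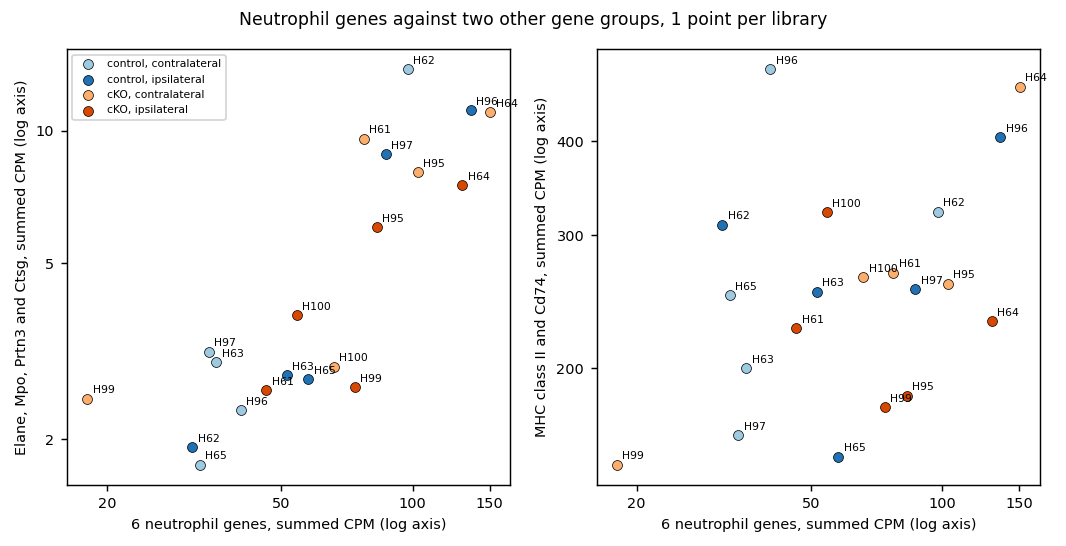
Each point is 1 library (colour gives the group); the x axis is the sum of the 6 neutrophil genes and the y axis the sum of 4 marrow granule proteases (left) or of the MHC class II genes with Cd74 (right), in CPM on log axes. The contralateral library of H96 is the highest on the right, at 499 CPM, with a neutrophil sum of only 40.4 CPM, whereas on the left the libraries richest in neutrophil genes are also rich in the proteases.

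High MHC class II and Cd74 sums and high neutrophil sums did not always come from the same library. The contralateral library of H96 had the highest MHC class II and Cd74 sum of all, 499 CPM, with 40.4 CPM of neutrophil genes, while its ipsilateral library had 405 and 135.7 CPM. The 6 macrophage surface and cytoplasmic markers did not stand out in that contralateral library. They summed to 40.6 CPM there, in a group that spanned 30.9 to 41.1 CPM. The contralateral library of H64 was high in both, at 473 and 150.4 CPM, and that of H99 low in both, at 149 and 18.03 CPM. Fibroblast markers (7 genes) spanned 803 to 1359 CPM in control contralateral, 927 to 1520 in control ipsilateral, 937 to 2245 in cKO contralateral and 850.1 to 1560 in cKO ipsilateral libraries. Their extremes among cKO contralateral libraries were again H99 and H64. None of the 7 was at 0 in all libraries of a group, and their part in the spread was not tested.

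Other genes of the same cells and of the signals that recruit them were read from lists drawn up from what these genes are known to do. Of 15 myeloid attractants and growth factors, 11 were tested, and 4 rose in control mice (Il6, Csf1, Ccl12 and Ccl7) and 5 in cKO mice (the same 4 and Ccl2), with none lower. Csf1, the growth factor that macrophages depend on, was at 21.7 ± 2.24 CPM in control contralateral and 94.9 ± 5.77 CPM in control ipsilateral DRG (log2 fold change 2.13, SE 0.0910, edgeR adjusted p = 1.13e-12), and at 25.4 ± 3.30 and 97.2 ± 10.8 CPM in cKO mice (1.93, SE 0.0904, adjusted p = 3.19e-12). The monocyte chemokine gene Ccl7 went from 1.06 ± 0.599 to 2.83 ± 0.624 CPM in control mice (1.40, adjusted p = 0.00277) and from 1.30 ± 0.6005 to 3.19 ± 0.561 CPM in cKO mice (1.30, adjusted p = 0.00459).

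Among further tissue macrophage genes, Cbr2 rose in control mice (log2 fold change 0.81, SE 0.188, edgeR adjusted p = 0.00250). The median of this list of 22 genes was 0.48 in control and -0.12 in cKO mice. Of 15 further phagocyte activation genes, 3 rose in control mice (Cd63, Ctsd and Ctsb). In cKO mice Cd63 and Ctsb were among those that rose, and 2 fell (Igf1 and Cd9). Cd63, a tetraspanin of lysosomes found in many cell types, went from 52.4 ± 1.88 to 85.3 ± 3.61 CPM in control mice (0.70, SE 0.0583, adjusted p = 8.60e-09). The insulin-like growth factor gene Igf1 fell from 31.2 ± 17.4 to 13.4 ± 4.11 CPM in cKO mice (-1.22, SE 0.357, adjusted p = 0.0141), and its cKO contralateral libraries ran from 10.96 to 48.5 CPM. None of 11 monocyte genes passed in either genotype (lowest edgeR adjusted p = 0.205 and 0.10001).

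Of 19 further neutrophil genes, 18 were tested, and Hdc, the histamine-forming enzyme, rose in control mice (log2 fold change 0.66, SE 0.116, edgeR adjusted p = 1.67e-04) and in cKO mice (0.72, SE 0.116, adjusted p = 5.92e-05), and Il1r2, the decoy interleukin-1 receptor, rose in cKO mice (0.58, adjusted p = 0.0246). Hdc is also made by mast cells and some neurons. Of 9 marrow precursor genes, Ms4a3 (-0.89 and -0.64) and Kit (-0.37 and -0.26) fell in control and cKO mice, and Kit is also expressed by mast cells and sensory neurons. Mast cell markers (6 genes) summed to 97.9 to 112.4 CPM in control contralateral, 81.0 to 94.4 in control ipsilateral, 93.2 to 116.0 in cKO contralateral and 81.3 to 107.1 in cKO ipsilateral libraries, with none at 0 in all libraries of a group. Most of this sum was Kit, at 91.4 ± 4.19 CPM in control contralateral and 70.8 ± 2.38 CPM in control ipsilateral DRG. The other 5 mast cell markers had log2 fold changes above 0 in each genotype (median of the 6 genes 0.53 in control and 0.18 in cKO mice), and 1 of them, Fcer1a, rose in control mice (1.02, edgeR adjusted p = 0.0447). Fcer1a was at a low level there, 0.219 ± 0.0733 CPM contralaterally and 0.439 ± 0.199 CPM ipsilaterally. The part of mast cell markers in Hdc and Kit was not tested.

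The second question was whether the genotypes differed. The control and cKO contralateral libraries enter the injury comparisons too, so the comparisons are not independent. On the contralateral side none of the 34 genes passed in edgeR (0.0735% of all genes called), 3 had an unadjusted p under 0.05 (17.5% of all genes), and DESeq2 called Spp1 (0.21, adjusted p = 0.0389) and Lyve1 (0.57, adjusted p = 0.0272). DESeq2 also called far more of all genes than edgeR did, with counts in the closing section, so these calls are not particular to the 34 genes. The count of 3 was 12 without H99, 7 without H62, 5 without H96 or with DESeq2, and 2 without H63. Without H64 it stayed at 3. The shares of all genes in these fits are not given here. Of the 34, 29 had a log2 fold change (cKO over control) above 0, with a median of 0.25 against -0.01 for all genes and 45.8% of all genes above 0. This median was 0.03, with 21 of 34 above 0, without H64, and it was 0.41 without H99, 0.40 without H96 and 0.16 without H97 (33, 33 and 24 above 0). Spp1 averaged 131 ± 6.67 CPM in control and 151 ± 15.6 CPM in cKO mice (0.20, SE 0.0635, edgeR adjusted p = 0.130), Lyve1 6.24 ± 1.28 and 9.18 ± 2.75 CPM (0.56, SE 0.177, adjusted p = 0.134), and Gpnmb 8.68 ± 0.761 and 7.12 ± 0.882 CPM (-0.29, SE 0.107, adjusted p = 0.179). The ranges of the 2 genotypes overlapped for each of the 34 (they did not for 1.52% of all genes). Lyve1 passed when H99 was left out (0.69, adjusted p = 0.0126) and when H64 and H99 were both left out (0.71, adjusted p = 0.0470). Both fits also called far more of all genes than the main fit, with counts in the closing section.

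The neutrophil genes had the largest genotype values on the contralateral side, with Retnlg at 3.24 ± 2.05 CPM in control and 6.49 ± 3.95 CPM in cKO mice (log2 fold change 1.00, SE 0.517, edgeR adjusted p = 0.332) and Cxcr2 at 1.01 ± 0.565 and 1.96 ± 1.35 CPM (0.95, SE 0.541, adjusted p = 0.380). Retnlg was at 6.84, 3.05, 2.04, 2.10 and 2.18 CPM in control mice H62, H63, H65, H96 and H97 and at 7.21, 11.8, 7.50, 1.07 and 4.82 CPM in cKO mice H61, H64, H95, H99 and H100. Of the cKO libraries 4 lay above 4 of the control libraries, and H99 lay below all 5. The marrow granule proteases summed to 4.80 ± 5.05 and 6.80 ± 3.89 CPM and the erythroid genes to 421 ± 168 and 579 ± 202 CPM in control and cKO contralateral DRG. No gene passed in any marker list of other cells in this comparison. Fibroblast, bone and cartilage, muscle and erythroid lists had medians of 0.85 (7 of 7 above 0), 1.12 (6 of 6), 1.25 (7 of 7) and 0.47 (6 of 6), larger than the 0.25 of the 34 genes. The mast cell median was 0.47 (5 of 6), the lymphatic endothelial 0.25 (5 of 6) and the endothelial 0.17 (7 of 7). Satellite glial genes had 0.02 (3 of 6) and Schwann cell genes -0.03 (4 of 8). The 10 lymphocyte genes had -0.36 (1 above 0) and 15 sensory neuron genes -0.06 (2 above 0). The part of these lists in the genotype values was not tested.

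On the ipsilateral side none of the 34 passed in edgeR (0.007% of all genes called) or DESeq2, none had an unadjusted p under 0.05 (2.36% of all genes), and 12 lay above 0 and 22 below, with 50.1% of all genes above 0 and a median of -0.08 against 0.00. It was 0.03 without H96, with 23 of 34 above 0, and from -0.18 without H65 or H100 (7 and 8 above 0) to -0.03 without H95 (15 above 0) when each of the other mice was left out, with -0.13 without H64 (6 above 0) and -0.03 without H99 (14 above 0). Lgals3 was at 59.5 ± 3.75 CPM in control and 63.6 ± 6.46 CPM in cKO mice (log2 fold change 0.10, SE 0.101) and Spp1 at 176 ± 14.0 and 167 ± 8.68 CPM (-0.08, SE 0.0634). The MHC class II genes had the lowest values, from -0.30 for H2-Aa and H2-Ab1 to -0.29 for H2-Eb1, with SEs of 0.345, 0.353 and 0.333. The edgeR adjusted p was 1.00 for each of the 34.

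The interaction, the difference between the injury responses of cKO and control mice, passed for none of the 34 in edgeR (0% of all genes called) or DESeq2, and 1 of the 34, Spp1, had an unadjusted p under 0.05 (9.8% of all genes). That count was 2 with DESeq2, with mouse as a block, and without H61, H62, H95 or H99. The shares of all genes in those fits are not given here, so the change in count cannot be read as a result about the 34 genes. For 33 of the 34 the value was below 0, a smaller rise or larger fall in cKO mice, with 52.9% of all genes above 0 and a median of -0.33 against 0.01, and Gpnmb was the exception at 0.25. Without H64 the median was -0.14 with 6 of 34 above 0, without H97 it was -0.22 with 3 above 0, and without H99 -0.45 with 1 above 0. Of the marker lists of other cells no gene passed in the same term, and 5 lists lay wholly below 0, with medians of -0.98 for 7 fibroblast, -0.25 for 7 endothelial, -0.45 for 6 erythroid, -2.50 for 6 bone and cartilage and -3.63 for 7 muscle genes and 0 genes above 0 in each list. The medians were -0.39 for 6 mast cell, -0.27 for 6 lymphatic endothelial, -0.11 for 10 lymphocyte, -0.10 for 6 satellite glial and -0.08 for 8 Schwann cell genes (1, 1, 4, 1 and 1 above 0), and 0.05 for 15 sensory neuron genes (10 above 0). Their part in the interaction values was not tested. The largest in size were in neutrophil genes, with Cxcr2 at -0.81 (SE 0.750) and Retnlg at -0.79 (SE 0.722), and Lgals3 was at -0.06 (SE 0.144, edgeR adjusted p = 0.914). The 34 genes vary together between libraries, so the number that share a sign is not a count of independent results. By mouse, the number of the 34 genes that were higher on the injured side was 19, 32, 14, 26 and 33 in control mice H62, H63, H65, H96 and H97 and 19, 3, 6, 33 and 27 in cKO mice H61, H64, H95, H99 and H100. More than 30 of the 34 were higher in 2 control mice and 1 cKO mouse, and fewer than 10 in 2 cKO mice and no control mouse.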

How the data were processed

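The authors deposited exonic read counts and FPKM values per gene for 20 stranded, paired-end mRNA libraries; per the submitters' processing notes HISAT2 and Picard were used and builds mm10 and mm39 are named, with no role for either, and the counter, annotation and strand setting are not given in the sources used here. Without a known strand setting, reads of overlapping genes, and of close copies such as Lyz1 and Lyz2, the Ly6 family or the H2 genes, may be split or shared. The deposited FPKM values were in a constant ratio to counts over library totals for 21541 of 21541 genes with at least 1000 counts (tolerance 1e-06), so they carry no further measurement and served only for an alternative.

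Members and gene lists were chosen with earlier results of these data known. Counts were tested with edgeR 4.0.16 (R 4.3.3): filterByExpr by group (minimum count 10, minimum total 15), TMM, 1 mean per group over all 20 libraries, robust quasi-likelihood F-tests for 5 comparisons and Benjamini-Hochberg adjustment over 28564 genes. CPM use the TMM-scaled library sizes. Besides the called members, the 6 members with the lowest p in a comparison were eligible to be named with statistics, and further members given with statistics, such as Fcer1g and Cd53, were picked with their values already known; the results of some genes of the further lists are not reported here. Both libraries of a mouse come from the same animal, which pairs them; their deviations from the group means correlated at a median of 0.186 (-0.0546 to 0.361), over 0.1 in 7 of 10 mice. In 40 pairs of libraries within groups, chi-square over degrees of freedom was 5.11 to 55.3. Each pair joins different mice, so this ratio holds differences between animals as well as counting noise and cannot separate them.

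Alternatives were DESeq2 1.42.0, RLE scaling, testing without a filter or above a mean of 1 CPM, limma-voom (limma 3.58.1) with mouse as a random effect, limma on log2 FPKM (pseudocount 1 or 0.1), mouse as a block, a covariate for mouse-number range, a fit on just the groups compared, leaving out each mouse, and, chosen after seeing the data, leaving out H64 and H99. The fit was also run on simulated counts, and the outcome of that check is not reported here. Motif searches covered the 250 bases before each RefSeq start.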

Additional observations from a re-analysis of the deposited data

Results flagged for a closer look

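In 7 of 136 gene-by-group sets of 5 libraries, 1 library stood apart from the other 4 by more than Dixon's 95% critical value for the ratio of its gap to the range; chance gives about 6.8. Of these, 5, all neutrophil genes, were the same library, the contralateral DRG of control mouse H62, which stood high for S100a8 (ratio 0.959), S100a9 (0.833), Retnlg (0.790), Cxcr2 (0.721) and Ly6g (0.720). S100a9 was at 50.7 CPM there and at 15.7 to 21.5 CPM in the other 4 control contralateral libraries. The same library had the highest sums of marrow granule proteases (13.8 CPM) and of erythroid genes (717 CPM) of its group, whose part in these values was not tested. Adgre1 stood high in the ipsilateral DRG of cKO mouse H100 (11.6 CPM, ratio 0.800), and Spp1 stood low in the ipsilateral DRG of control mouse H65 (152 CPM, ratio 0.830). No member moved in opposite directions in every mouse of the 2 genotypes, and none passed the interaction test.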

How the results depend on the processing

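For the 6 members with the lowest p in each comparison none of 612 values under the alternatives reversed; 586 kept their side of the threshold, 16 lost it and 10 gained it. Members near 0 did change sign, among them Lyz2 (-0.13 to 0.28) and Cd163 (-0.10 to 0.18) with injury in control mice. The 80 summed levels moved by less than the spread between mice under RLE scaling or plain totals. The number of members called with injury in control mice (5) was 2 with no filter and 3 with limma on log2 FPKM with pseudocount 1, and 2 to 6 when 1 mouse was left out; Lyve1, Mrc1 and Cd14 accounted for the losses, while Lgals3 and Spp1 were called under every alternative run. The contralateral genotype comparison (0 members, 21 genes in all) gave 2 members with DESeq2 and 1 without H64 and H99, and 0 to 1 when 1 mouse was left out. Its count over all genes was 1041 with DESeq2, 50 with no filter, 45 above a mean of 1 CPM, 12 and 13 by limma on FPKM (pseudocount 1 and 0.1), 2 when just these libraries were fitted, 1137 without H64 and H99, and 4 to 3326 when 1 mouse was left out (H95 and H99). The interaction over all genes (0) gave 11 with DESeq2 and 0 to 43 when 1 mouse was left out (43 without H99). The cause of these shifts was not tested. With mouse as a replicate block the injury counts over all genes were 8559 in control and 9015 in cKO mice (8540 and 8939 without), Fcer1g (control) and Spp1 (cKO) gained a call, and no other member's call changed. Ly6g had counts down to 8, and 26 of the 34 had at least 100 counts in every library.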
